A study of Homo sapiens with 2 samples.

Results

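This account covers 10 genes that make, sense and clear extracellular adenosine, with NT5E, the gene of the surface enzyme CD73, at their head. The members are NT5E, ENTPD1, ENTPD2, ENTPD3, ENPP1, ADORA1, ADORA2B, ADA, ADK and SLC29A1, and every probe set annotated to one of them alone was taken, which gave 25 of the 54613 probe sets compared and 10 of the 19775 genes. QGP1 is an established human cell line from a pancreatic neuroendocrine tumour. One group was QGP1 cells with high aldehyde dehydrogenase (ALDH) activity, obtained by fluorescence-activated cell sorting, and the other was control QGP1 cells. No genotype, treatment or time is given for either group, and the sources used here do not say if the control cells were sorted. Both groups come from a single line, with 1 array each, so no difference has a replicate check, no test was made, and the number of arrays limits the precision. The study set out to profile the ALDH-high cells as a stem-like population, and its description names CD73 among the genes higher there. NT5E was thus chosen by its difference between these same arrays, and the other members were selected on their place in its pathway with their differences already known, so all member values are given as a description.

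Values are RMA levels on the log2 scale, so that a difference of 1 is 2-fold. RMA is the usual summary of an Affymetrix probe set, a group of short probes against one transcript. Over all probe sets the median level was 5.68 on each array, and levels below it are called dim here. Where a gene had several probe sets, the one whose level averaged highest over both arrays stands for the gene and is called its main probe set.

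Cells release ATP, which surface enzymes strip of phosphates in steps. ENTPD family ectonucleotidases, of which ENTPD1 is CD39, take ATP and ADP down to AMP, and ENPP1 cuts ATP to AMP and pyrophosphate. CD73 then turns AMP into adenosine, which acts on G protein-coupled receptors or is cleared by transport into the cell, deamination to inosine or phosphorylation back to AMP. In tumours the pathway is known for the suppression of immune cells by adenosine.

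By main probe set, NT5E was far higher in the ALDH-high cells, 3 members were nearly 2-fold lower, and 6 lay within 1.5-fold of control. The lower members were ENTPD2 and ENTPD3, which remove phosphates from ATP and ADP, and ADA, which removes adenosine. At the main probe sets, 1 of 10 members was over 2-fold higher, where 0.465% of all genes were, and 0 of 10 were over 2-fold lower, where 1.23% of all genes were. At 1.5-fold the counts were 1 higher and 3 lower, and the shares of all genes were 2.61% higher and 4.21% lower. The members were picked with these arrays in view, so nothing is read from these counts. The median difference of the members was 0.12, against -0.01 for all genes, and it was 0.01 with the mean of probe sets. Of the members, 6 lay above 0 and 4 below, where 45.6% of all genes lay above and 50.3% below. Counted by probe set, 1 of 25 was over 2-fold higher, where 0.403% of all probe sets were, and 0 were over 2-fold lower, where 0.842% of all were.

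**Figure D1:**
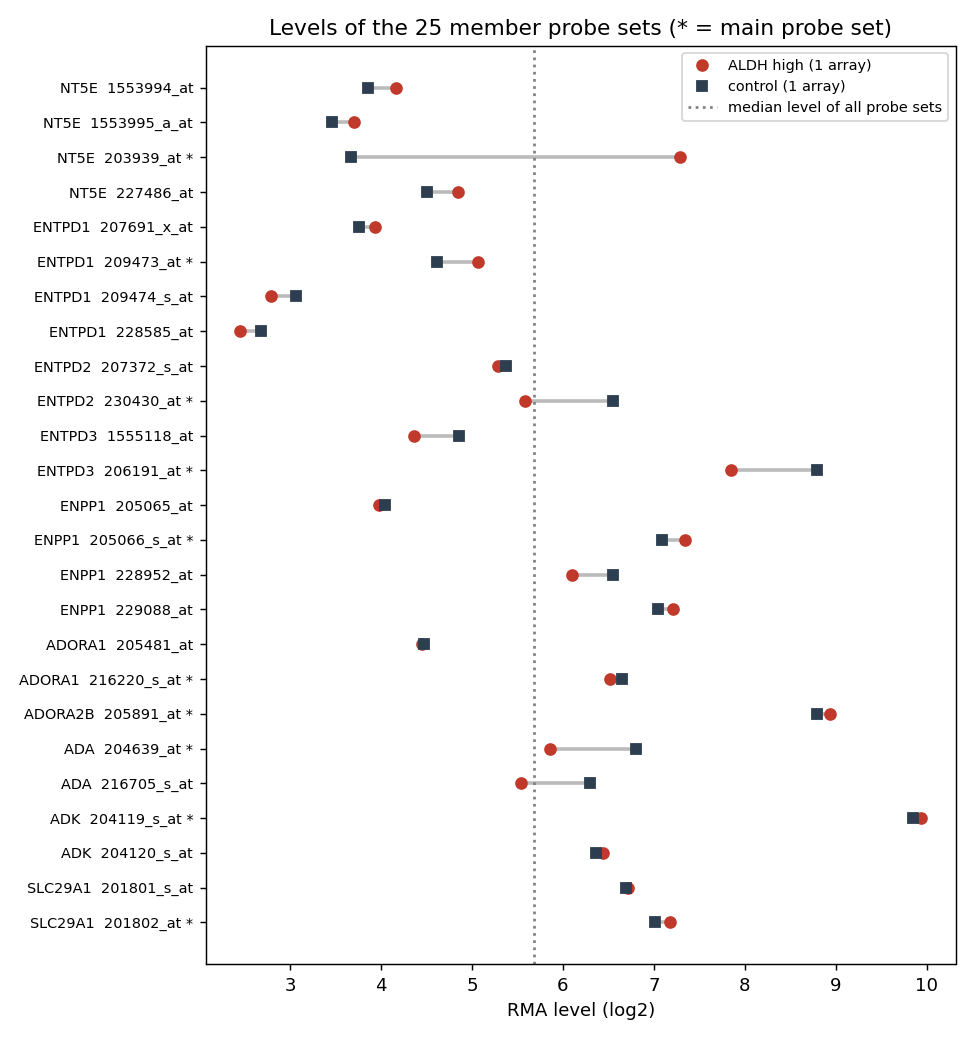
RMA levels (log2, horizontal axis) of the 25 probe sets of the 10 members on the ALDH-high array (red circles) and the control array (dark squares), 1 array per group, with the main probe set of each gene starred. The NT5E probe set 203939_at spans 7.29 in ALDH high and 3.67 in control, while the other NT5E probe sets stay left of the dotted median level of 5.68 on both arrays.

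The stretches before the start sites of the 4 members with the largest differences are shown, since NT5E on one side and ENTPD2, ENTPD3 and ADA on the other differed in opposite directions. They are the 250 bases before each gene's start in RefSeq (GRCh38.p14), read in the direction of the gene, and the table held promoters for 10 of 10 members. Capitals mark GGGCGG or its reverse complement CCGCCC, a box that SP1 family factors bind, and CAGGTG or CACCTG, an E-box that SNAI factors bind. Both strands were searched, and overlapping copies run together.
NT5E (chr6:85449833-85450082, plus strand): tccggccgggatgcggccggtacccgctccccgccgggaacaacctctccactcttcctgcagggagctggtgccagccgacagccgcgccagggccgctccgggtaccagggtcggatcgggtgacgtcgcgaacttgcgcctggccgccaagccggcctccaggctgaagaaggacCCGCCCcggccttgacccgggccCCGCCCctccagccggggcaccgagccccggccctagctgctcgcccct
ENTPD2 (chr9:137054062-137054311, minus strand): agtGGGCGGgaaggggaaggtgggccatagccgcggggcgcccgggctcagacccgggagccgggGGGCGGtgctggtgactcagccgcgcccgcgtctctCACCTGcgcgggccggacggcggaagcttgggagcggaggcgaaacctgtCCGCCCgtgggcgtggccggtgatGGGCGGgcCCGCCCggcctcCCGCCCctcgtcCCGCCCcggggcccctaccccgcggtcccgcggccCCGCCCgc
ENTPD3 (chr3:40386934-40387183, plus strand): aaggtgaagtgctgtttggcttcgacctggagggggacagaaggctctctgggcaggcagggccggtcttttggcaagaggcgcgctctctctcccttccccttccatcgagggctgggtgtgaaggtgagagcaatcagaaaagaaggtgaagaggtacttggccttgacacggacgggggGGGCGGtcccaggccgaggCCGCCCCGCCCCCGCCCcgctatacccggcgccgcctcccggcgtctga
ADA (chr20:44651700-44651949, minus strand): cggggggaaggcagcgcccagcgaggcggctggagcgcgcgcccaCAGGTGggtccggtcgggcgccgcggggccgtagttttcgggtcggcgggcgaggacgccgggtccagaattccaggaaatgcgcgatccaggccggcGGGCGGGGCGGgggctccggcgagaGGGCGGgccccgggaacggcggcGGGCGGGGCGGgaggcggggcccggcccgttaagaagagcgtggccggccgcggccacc
The NT5E stretch held 2 copies of the SP1 box and no copy of that E-box. ENTPD2 held 8 SP1 boxes and ADA 5, each with 1 E-box, and ENTPD3 held 4 SP1 boxes. Neither the hypoxia core ACGTG, nor the cAMP response element TGACGTCA, nor the TEAD box GGAATG was found on either strand of these 4 stretches. Of 35116 promoters of this length in the table, 42.6% held the SP1 box, 17.5% the E-box, 18.5% the hypoxia core, 1.65% the cAMP response element and 11.9% the TEAD box. At least 1 SP1 box in any of its promoters was found for 9 of the 10 members, the exception being ENTPD1. The members had 16 promoters in the table, so this count by gene is not comparable with the share of single promoters. These stretches are rich in G and C, with 75.2% in NT5E, 80.8% in ENTPD2, 66% in ENTPD3 and 80% in ADA, against a median of 58% over all promoters. A match is a run of letters and no evidence of binding.

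NT5E, which encodes CD73, stood at 7.29 on the ALDH-high array and 3.67 on the control array at probe set 203939_at. The difference was 3.62, or 12.3-fold higher, and only 2 of the other genes of the array had a larger positive difference. The level lay at percentile 70.3 of the ALDH-high array and percentile 17.6 of the control array. Its control level is dim, so the size of the fold depends on a value near the lower end of the scale. With a pseudocount of 32 on the linear scale the difference was 2.08. In RNA of a whole cell preparation, more cells with the transcript and more transcript per cell cannot be told apart.

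The other 3 NT5E probe sets were dim on both arrays. Probe set 227486_at had 4.84 in ALDH high and 4.51 in control, a difference of 0.33. Probe set 1553994_at had 4.16 in ALDH high and 3.85 in control, a difference of 0.31. The lowest, 1553995_a_at, had 3.70 in ALDH high and 3.46 in control, a difference of 0.24. All 4 probe sets thus pointed the same way, and 1 was over 2-fold. On the control array 203939_at, at 3.67, was dimmer than 227486_at and 1553994_at. It became the main probe set only through its ALDH-high level, so the 12.3-fold difference and its rank rest on that choice. Chosen by control level, 227486_at would stand for NT5E, with a difference of 0.33. The mean of the 4 differences was 1.13 and their median 0.32, so NT5E was no longer over 2-fold when the median stood for the gene. In the platform annotation 203939_at is tied to a RefSeq messenger RNA record, 1553994_at and 1553995_a_at share a different record, and 227486_at has one of its own. The transcript parts that they cover were not analysed here.

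The genes whose pair of levels lay nearest to that of NT5E, by straight-line distance over the 2 arrays, were CD109, LRRTM4, PHLDB2, KRT14 and GJA1, at distances of 0.63 to 1.29. CD109, a GPI-anchored surface protein as CD73 is, had 6.76 in ALDH high and 4.01 in control. LRRTM4 had 6.31 in ALDH high and 4.20 in control, and PHLDB2 7.15 in ALDH high and 4.79 in control. Other probe sets differed less, with the 3 of CD109 from 0.18 to 2.75 and the 5 of PHLDB2 from -0.32 to 2.36. These genes were picked by the levels of their main probe sets, so nothing is read from the smaller differences of the others. KRT14, a keratin of basal epithelial cells, had 8.29 in ALDH high and 4.33 in control. With 2 arrays this likeness rests on a single pair of values for each gene.

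Among the enzymes that act on ATP and ADP, ENTPD2 and ENTPD3 were lower in ALDH high, and ENTPD1 and ENPP1 had probe sets pointing both ways. ENTPD3 had 7.85 in ALDH high and 8.80 in control at 206191_at, a difference of -0.95 (1.93-fold lower). Its second probe set, 1555118_at, had 4.36 in ALDH high and 4.86 in control, a difference of -0.50 at a dim level. Of all genes, 1.42% had a difference at least as low as that of ENTPD3. Both probe sets of this gene were lower in ALDH high, and the main one was bright on both arrays.

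ENTPD2, which prefers ATP over ADP and so leaves ADP behind, had 5.58 in ALDH high and 6.55 in control at 230430_at. The difference was -0.97 (1.96-fold lower), and 1.34% of genes were at least as low. Its second probe set, 207372_s_at, was nearly level, with 5.29 in ALDH high and 5.37 in control. As the mean of both probe sets, ENTPD2 differed by -0.52.

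ENTPD1, the CD39 enzyme best known from leukocytes and endothelium, was dim at all 4 probe sets. The main one, 209473_at, had 5.07 in ALDH high and 4.62 in control, a difference of 0.45, and 207691_x_at had 3.93 in ALDH high and 3.76 in control. The remaining probe sets ran the other way, with 2.79 in ALDH high and 3.06 in control at 209474_s_at and 2.45 in ALDH high and 2.68 in control at 228585_at. The 4 differences averaged 0.03 and had a median of -0.03, so the direction of ENTPD1 turned with the probe set.

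ENPP1 had 7.35 in ALDH high and 7.09 in control at 205066_s_at, a difference of 0.26. A second bright probe set, 229088_at, had 7.22 in ALDH high and 7.04 in control, whereas 228952_at had 6.11 in ALDH high and 6.56 in control, a difference of -0.45. The dim 205065_at differed by -0.06. The mean over the 4 was -0.02, so no direction holds for ENPP1 across its probe sets.

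**Figure D2:**
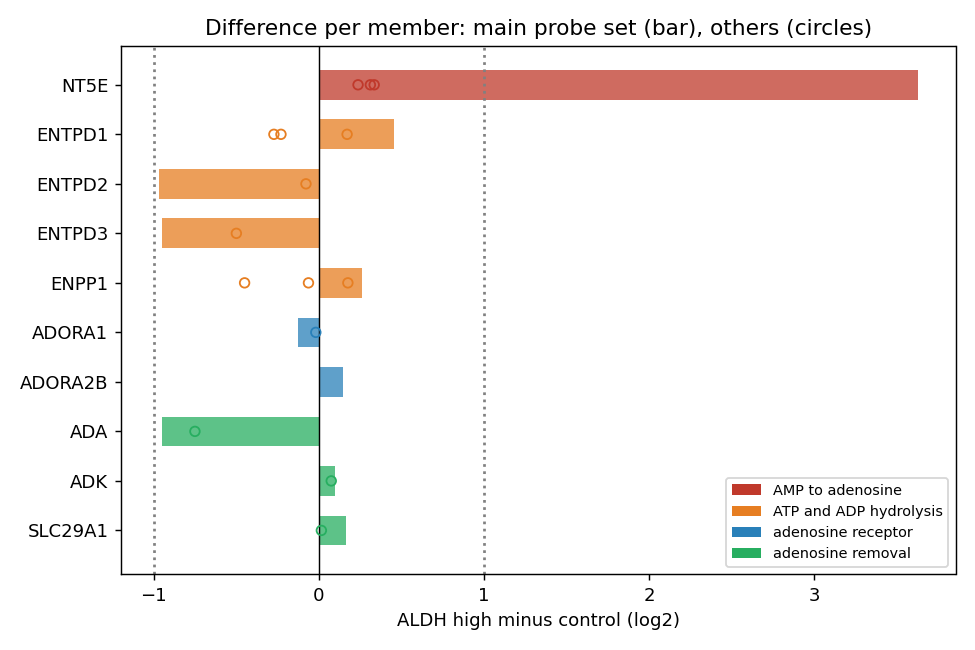
Difference between ALDH high and control (log2, horizontal axis) for the 10 members, with the main probe set as a bar coloured by role and the other probe sets as open circles, 1 array per group and dotted lines at 2-fold. NT5E reaches 3.62 on its main probe set, ENTPD2, ENTPD3 and ADA stop at -0.97, -0.95 and -0.95, and ENTPD1 and ENPP1 have circles on both sides of 0.

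The adenosine receptors measured differed little. ADORA2B, the low-affinity receptor coupled to stimulation of cAMP, had 8.94 in ALDH high and 8.79 in control on its single probe set, a difference of 0.15. ADORA1, the receptor that inhibits cAMP formation, had 6.52 in ALDH high and 6.65 in control at 216220_s_at, a difference of -0.13. Its dim probe set 205481_at had 4.45 in ALDH high and 4.47 in control. ADORA3 had 5.61 in ALDH high and 5.46 in control, both dim, and ADORA2A was not analysed here.

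Of the 3 genes that clear adenosine, ADA was lower in ALDH high and the others were nearly level. ADA, the deaminase that turns adenosine into inosine, had 5.86 in ALDH high and 6.81 in control at 204639_at, a difference of -0.95 (1.93-fold lower). The second ADA probe set, 216705_s_at, had 5.54 in ALDH high and 6.30 in control, a difference of -0.75, so that both probe sets were over 1.5-fold lower. Among all genes, 1.41% were at least as low as ADA.

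ADK, the kinase that returns adenosine to AMP inside the cell, had 9.94 in ALDH high and 9.85 in control at 204119_s_at. Its second probe set, 204120_s_at, had 6.44 in ALDH high and 6.37 in control. SLC29A1, the equilibrative nucleoside transporter ENT1, had 7.18 in ALDH high and 7.02 in control at 201802_at and 6.71 in ALDH high and 6.70 in control at 201801_s_at. Differences of these genes ranged from 0.01 to 0.16 over their 4 probe sets.

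The probe sets of one gene differed among themselves. The pooled within-gene SD of the probe set differences was 0.23 over 10523 genes with several. Over the 9 members with several it was 0.80, and 0.32 without NT5E. This spread does not cover variation between cultures or sorts. On 11 of the 25 probe sets the higher of both levels was dim, and these could show little.

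Beyond the members, a list of 47 further genes of adenosine and ATP handling was examined, of which 43 had a probe set annotated to them alone. Past 2-fold were 1 higher and 1 lower gene of the 43, where 0.465% of all genes were higher and 1.23% lower, and the other 41 were within 1.5-fold. GJA1, the gap junction protein connexin 43, whose hemichannels can release ATP, had 6.01 in ALDH high and 3.78 in control, a difference of 2.22 on its single probe set (4.67-fold higher, against a dim control level at percentile 19.1 of that array). It is also one of the genes nearest to NT5E. BST1, an ectoenzyme of NAD breakdown, had 4.25 in ALDH high and 5.54 in control, a difference of -1.28 with both levels dim.

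The rest of that list lay between bounds set by smaller differences. SLC29A2, the second equilibrative transporter, had 7.85 in ALDH high and 7.33 in control, a difference of 0.52 on its brightest probe set, with 5 probe sets between -0.15 and 0.52. DPP4, the surface protein that anchors ADA in human cells, differed by 0.36 on its main probe set with both levels dim, and its 3 probe sets ran from -0.16 to 0.36, on both sides of 0. PNP, which breaks inosine down, had 10.25 in ALDH high and 10.15 in control, and CD38, which feeds adenosine formation from NAD, had 4.83 in ALDH high and 4.74 in control. The median difference of the 43 genes was 0.08, against -0.01 for all genes. It was -0.01 over the 33 genes left without probe sets whose IDs end in _s_at or _x_at, which may bind several transcripts.

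Genes on the cAMP side of the receptors were mostly close to control. Of 31 listed, 29 were measured, 10 lay above 0 and 19 below, where 45.6% of all genes lay above and 50.3% below, and the median difference was -0.08. Past 1.5-fold were 1 higher gene, ADCY2, and 3 lower genes, GNAL, CREM and PDE4A, where 2.61% of all genes were higher and 4.21% lower. GNAL, a stimulatory G protein alpha subunit, had 8.40 in ALDH high and 9.76 in control, a difference of -1.36, and its 4 probe sets were all lower in ALDH high, from -1.44 to -1.08. CREM, a transcription factor of the cAMP response, had 9.30 in ALDH high and 10.25 in control, a difference of -0.95, and all 6 of its probe sets were lower in ALDH high, from -1.07 to -0.24.

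PDE4A, a cAMP phosphodiesterase, had 5.89 in ALDH high and 6.73 in control on its brightest probe set, a difference of -0.84, whereas its other 4 were dim and ranged from -0.09 to 0.09. ADCY2, an adenylyl cyclase, had 7.61 in ALDH high and 6.81 in control, a difference of 0.80, with its 3 probe sets from -0.17 to 0.80. At the main probe sets only GNAL was over 2-fold different in this list.

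**Figure D3:**
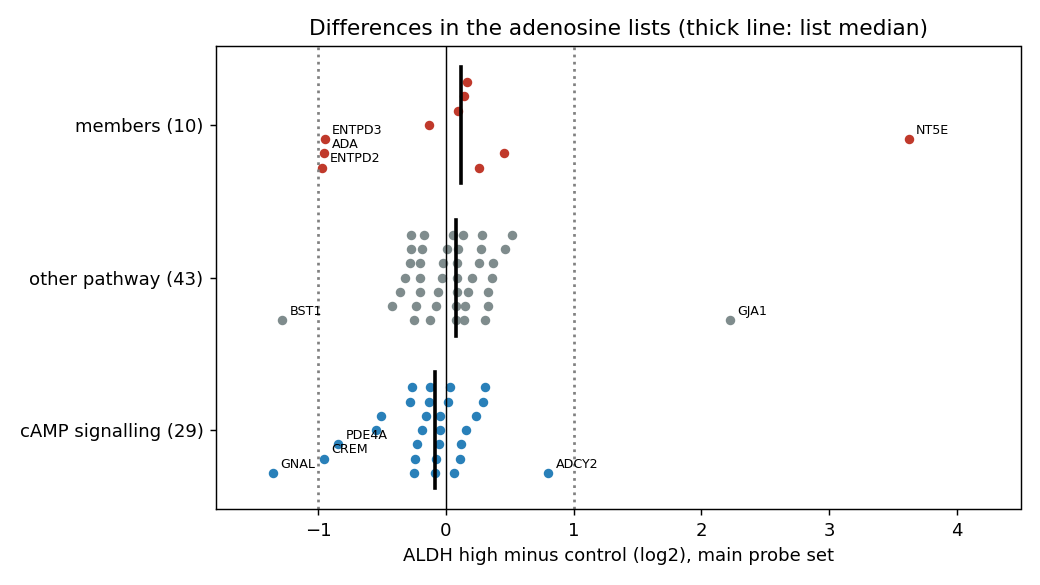
Difference between ALDH high and control (log2, horizontal axis) at the main probe set for the 10 members, 43 other adenosine and ATP handling genes and 29 cAMP signalling genes, each point a gene, thick lines the list medians and dotted lines 2-fold. NT5E at 3.62 and GJA1 at 2.22 stand to the right of the 2-fold line, and BST1 at -1.28 and GNAL at -1.36 to the left of it.

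The identity of the cells was checked on both arrays. All 10 markers of the QGP1 line, among them chromogranins, somatostatin and CEACAM5, had a higher level at or above the median. Of these, 1 was over 1.5-fold higher and 0 lower, where 2.61% of all genes were higher and 4.21% lower. It was the somatostatin gene SST, with 13.43 in ALDH high and 12.83 in control. CEACAM5 had 13.42 in ALDH high and 13.88 in control. ALDH1A3 had 7.99 in ALDH high and 6.21 in control on its brighter probe set. Its dim probe set was nearly level, with 4.12 in ALDH high and 4.09 in control. ALDH1A1 had 11.78 in ALDH high and 12.13 in control. Fibroblasts, endothelial cells and leukocytes also carry CD73 or CD39. The summed linear levels of 7 fibroblast markers were 329 in ALDH high and 370 in control. COL1A1, the brightest of them, had 7.46 in ALDH high and 7.74 in control and so weighed most in that sum. For 5 endothelial markers the sums were 174 in ALDH high and 185 in control. For 4 leukocyte markers they were 111 in ALDH high and 140 in control. Fibroblast markers ranged from 2.58 to 7.46 in ALDH high and from 2.83 to 7.74 in control, endothelial markers from 2.98 to 6.05 in ALDH high and from 3.06 to 6.17 in control, and leukocyte markers from 3.56 to 5.65 in ALDH high and from 3.34 to 5.83 in control. Single markers ran both ways, with COL3A1 at 0.31 and PTPRC at 0.22, and CD14 at -1.02, all dim on both arrays. The probe sets of COL3A1 ran from -0.52 to 0.45 and those of PTPRC from -0.12 to 0.72. A higher level at or above the median was found for 2 of 7 fibroblast, 1 of 5 endothelial and 1 of 4 leukocyte markers. The matching share over all genes was not worked out, so these counts and that of the QGP1 markers are only described. The part of such cells in the NT5E difference was not tested.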

How the data were processed

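Total RNA of 1 ALDH-high and 1 control QGP1 sample was labelled as biotin-tagged amplified RNA with a 3' in vitro transcription kit, per the labels' protocols. The authors deposited 1 log2 level per probe set and array, computed by RMA according to the submitters' processing notes. The sources used here give neither the RMA version nor the set of arrays it was run on. No detection calls were used.

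Probe sets were named from GEO's platform annotation: 41091 had 1 gene symbol, 1801 several and 11721 none there, and only the first kind was used for genes. The median level, the percentiles, the shares of all probe sets and the search for equal differences took in all 54613. Symbols were updated through the Entrez ID with RefSeq (GRCh38.p14), which changed 0 of the 25 member probe sets. Control probe sets were left out. The quantity is ALDH high minus control, without a filter, described with thresholds of 2-fold and 1.5-fold. No test was possible with 1 array per group. The threshold step was tested on simulated data.

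The members, lists and naming rule were chosen with earlier results of these data known. Named were all members with every probe set, other pathway genes over 1.5-fold plus 6 set ones, cAMP genes over 1.5-fold, the 5 genes nearest to NT5E and the marker checks. Alternatives were the mean or median of probe sets, no _s_at or _x_at probe sets, a pseudocount, median centring, a level filter and the lower threshold. Python 3.11.15, pandas 2.3.3, NumPy 2.4.6 and Matplotlib 3.10.9 were used.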

Additional observations from a re-analysis of the deposited data

How the results depend on the processing

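The NT5E difference of 3.62 was 1.13 as the mean of its probe sets, 0.32 as their median and 2.08 with a pseudocount of 32. It stayed above 0 under all 6 alternatives. With all 4 NT5E probe sets above 0, a mean, a median or a pseudocount could not turn the sign, so nothing is read from that. With the median of probe sets, 0 members were over 2-fold higher in place of 1. At the 1.5-fold threshold 3 members were lower in place of 0, by construction of the lower threshold. The cause of the spread between probe sets was not tested. The median of the members ranged from 0.01 to 0.15 over the alternatives. ENTPD2 ranged from -0.97 to -0.52, ENTPD3 from -0.95 to -0.72 and ADA from -0.95 to -0.68. All probe sets of these genes were below 0, so a mean, a median or a pseudocount could not turn their sign either. ENTPD1 (from -0.03 to 0.46) and ENPP1 (from -0.02 to 0.26), with probe sets on both sides of 0, crossed 0. ADK had no probe set left without _s_at and _x_at IDs, and ENTPD1 fell out under the level filter. No paired analysis was possible because each group has 1 array. Dim levels limit what 11 of the 25 probe sets can show, and a single array per group leaves the spread between cultures unknown.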

Other observations

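On 8 of the 25 member probe sets the size of the difference between the arrays, taken to 6 decimals, was found in 20 or more probe sets of the table. These were all 4 probe sets of ENTPD1, the NT5E probe sets 1553994_at and 1553995_a_at, 205065_at of ENPP1 and 207372_s_at of ENTPD2, whose difference of -0.08 was shared in size by 179 probe sets. All 8 were dim on both arrays. The matching share over all probe sets was not worked out, so nothing is read from this count. The main probe sets of NT5E, ENTPD2, ENTPD3 and ADA had differences found in no other probe set.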
